A study of Mus musculus with 4 samples.

Results

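The ligands Gas6 and Pros1 and the TAM receptors Axl, Mertk and Tyro3, 5 of the 18619 genes in the file, were chosen by name and followed through stromal cells of the mouse small intestine. Their levels across cell types and across Amotl2 and Vegfc in fibroblasts were part of the choice, so these levels are described without a test. The study sorted tdTomato+ cells after tamoxifen had activated PDGFRb-CreERT2, a Cre recombinase driven by Pdgfrb in perivascular cells and fibroblasts, and profiled them with the 10X 3' v3 kit. The library described here, LATS1/2 KO 1w, came from adult C57BL/6J mice with Lats1 f/f and Lats2 f/f alleles and was labelled 1w. The study describes this time as 1 week after tamoxifen, and the labels do not give the number of mice. The series held 4 samples in 3 groups, of which WT (2 libraries) and LATS1/2 KO 2w were left out here. Deletion could reach only cells with Cre activity, and no control without deletion entered the comparisons. With 1 library there was no replicate and no p-value, and every comparison was made between cells of that library.

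TAM receptors are receptor tyrosine kinases named after TYRO3, AXL and MERTK. Their ligands GAS6 and protein S (encoded by Pros1) carry a Gla domain whose vitamin K-dependent carboxylation lets them bind phosphatidylserine on dying cells, and they bridge such cells to the receptor. GAS6 binds all of the receptors, whereas protein S acts mainly on TYRO3 and MERTK. In the gut the receptors are best known for engulfment of dead cells and for restraint of inflammatory signaling in macrophages and dendritic cells, and fibroblasts and vascular cells are known sources of the ligands. LATS1 and LATS2 are the kinases that restrain the coactivators YAP and TAZ, which act through TEAD factors, and Amotl2 is a widely used YAP/TAZ target gene. Vegfc encodes a growth factor of lymphatic vessels.

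The members are protein-coding genes of GENCODE M21 on GRCm38 (mm10). Gas6 (ENSMUSG00000031451) lies at chr8:13465374-13494490 on the minus strand, Pros1 (ENSMUSG00000022912) at chr16:62854307-62929346 on the plus strand and Axl (ENSMUSG00000002602) at chr7:25757273-25788705 on the minus strand. Mertk (ENSMUSG00000014361) and Tyro3 (ENSMUSG00000027298) both lie on the plus strand of chromosome 2, at chr2:128698956-128802894 and chr2:119797733-119818104.

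The 250 bases before the RefSeq start of Gas6 (chr8:13494536-13494785, minus strand), Pros1 (chr16:62854057-62854306, plus strand) and Axl (chr7:25788734-25788983, minus strand) on GRCm38.p6 are shown because these members had the clearest differences along Amotl2 and Vegfc. They are written 5' to 3' on the strand of the gene, and capitals mark matches to the TEAD core GGAATG on either strand.
Gas6: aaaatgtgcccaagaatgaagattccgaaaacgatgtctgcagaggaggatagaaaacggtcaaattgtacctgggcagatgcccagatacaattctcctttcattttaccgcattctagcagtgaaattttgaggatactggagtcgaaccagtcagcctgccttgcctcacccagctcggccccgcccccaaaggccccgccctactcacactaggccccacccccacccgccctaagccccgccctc
Pros1: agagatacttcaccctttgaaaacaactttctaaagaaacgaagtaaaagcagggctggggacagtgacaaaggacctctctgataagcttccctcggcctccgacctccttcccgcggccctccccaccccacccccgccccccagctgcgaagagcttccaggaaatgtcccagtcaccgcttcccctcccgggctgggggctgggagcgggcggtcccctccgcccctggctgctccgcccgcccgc
Axl: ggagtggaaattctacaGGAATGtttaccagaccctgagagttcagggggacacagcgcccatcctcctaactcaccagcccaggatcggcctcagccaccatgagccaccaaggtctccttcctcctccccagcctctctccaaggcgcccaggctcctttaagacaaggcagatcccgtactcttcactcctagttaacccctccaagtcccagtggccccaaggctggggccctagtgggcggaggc
None of the 3 overlapped an exon of its gene in GENCODE M21. Axl held 1 match, which began 233 bases before the start, and Gas6, Pros1, Mertk and Tyro3 held 0 in their windows. The window of Amotl2 held 1 match on the opposite strand, beginning 65 bases before its RefSeq start, but up to 136 bases of this window lie in an exon of GENCODE M21 (89 bases for Tyro3). That of Vegfc held 0. Of all 32851 RefSeq promoter windows of this length, 12.6% held the core. The AP-1 motif TGANTCA, found in 6.75% of the windows on either strand, matched in 0 of these 7. These are matches of letters and say nothing about binding.

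From 4108 cells came 46054627 unique molecular identifiers (UMIs, one for each captured transcript), or a median of 10726 in a cell with extremes of 1965 and 35727. Columns were marked M (1983 cells, 0 with an Xist UMI) or F (2125 cells, all with one), which split 1 library by Xist, so the marks were not replicates. They shared 0 cell barcodes. Levels are in CPM (a gene's UMIs among 1000000 UMIs of the cells in question), and their exact 95% Poisson intervals cover counting error only and not the variation between mice. Levels of different genes were not compared with each other. The deleted genes gave 656 UMIs (Lats1) and 2466 UMIs (Lats2) in the library, but tags at the 3' end may lie outside the deleted exons and WT was left out, so they do not check the label. Free RNA was bounded by the Y-linked UMIs found in the 2004 cells that had 5 or more Xist UMIs, which stood at 8.64% of the library level. For the members this bound was 19.5 CPM (Gas6), 13.7 CPM (Pros1), 17.7 CPM (Axl), 2.55 CPM (Mertk) and 0.302 CPM (Tyro3).

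Clustering without the members, Vegfc, Vegfa and the YAP/TAZ targets among the variable genes gave 10 clusters, numbered by size, of which 5 met a marker list. Cluster 3 was FB4-like (685 cells, 4 of 4 markers of the submucosal fibroblasts FB4) and cluster 7 FB5-like (205 cells, 6 of 6 markers of the subepithelial fibroblasts FB5), although the mural genes Kcnj8 and Abcc9 stood among the first 10 leading genes of cluster 7. Cluster 8 was SMC-like (77 cells, 6 of 6 markers of smooth muscle cells), cluster 9 MC-like (70 cells, 7 of 7 markers of mural cells) and cluster 10 vFB3-like (45 cells, 5 of 5 markers of the villus fibroblasts vFB3). Adamdec1, a villus fibroblast marker, was seen in 100% of SMC-like cells at 4302 CPM, against 498 CPM in MC-like cells. SMC markers summed to 23084 CPM in SMC-like, 12323 CPM in MC-like, 7144 CPM in FB5-like cells and 117 to 1574 CPM elsewhere. Kit and Etv1, markers of interstitial cells of Cajal, summed to 225 CPM in FB5-like cells and 10.5 to 58.8 CPM elsewhere. What these overlaps add to member levels was not tested. Clusters 1, 2, 4, 5 and 6 met no list and held 3026 cells. Clusters 1 and 6 met 3 of 5 vFB3 markers each, so the study's own vFB3 may reach into them, and names rebuilt here may differ from the study's. Cluster 1 (730 cells) was led by Tex14, Sertm1, Ecscr, Slc27a3 and Vegfc. Cluster 2 (685 cells) was led by Il1b, Vwc2, Ttyh1, Entpd1 and Pde10a, and cluster 4 (677 cells) by Cyr61, Gadd45g, Fmod, Dkk2 and Tnc, with Gas6 itself among its first 10. Cluster 5 (564 cells) was led by Cxcl10, Gm26802 and Adamts4 among others, and cluster 6 (370 cells) by Agt, Lrrc55, Scml4, Igfbp3 and Sertm1. The 8 clusters other than SMC-like and MC-like were taken as fibroblasts, 3961 cells in all. Markers of cells other than fibroblasts, smooth muscle and mural cells were sparse but not absent. The endothelial list summed to 67 UMIs on 4 of 5 genes (Pecam1 at 0), the epithelial list to 255 on 3 of 5 (Krt8 and Vil1 at 0), the list of other immune cells to 108 on 3 of 4 (Cd3e at 0, Ptprc at 22), the mesothelial list to 2 on 1 of 3 and the glial list to 168 on 3 of 3. Glial markers stood at 60.5 CPM in MC-like cells and at 1.36 to 5.76 CPM elsewhere, and endothelial markers, on 10 UMIs, at 17.3 CPM in MC-like cells and at most 2.40 CPM elsewhere.

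Gas6, the ligand of all TAM receptors, was highest in cluster 4, where its 3538 UMIs gave 458 CPM (444 to 474). The FB5-like cluster 7 stood at 292 CPM (271 to 314) and cluster 1 at 282 CPM (271 to 294), and the interval of their ratio included 1 (1.03, 0.95 to 1.12). FB4-like cells stood at 172 CPM (163 to 181), cluster 5 at 157 CPM (147 to 167), cluster 6 at 110 CPM (100 to 122) and cluster 2 at 96.3 CPM (89.1 to 104). The lowest levels were in MC-like cells (81.2 CPM, 59.7 to 108), vFB3-like cells (68.8 CPM, 49.2 to 93.7) and SMC-like cells (65.7 CPM, 48.7 to 86.6). Of the 9 pairs of neighbours in this order, 4 had a ratio whose interval included 1. These were clusters 7 and 1 and the pairs among clusters 2, 9, 10 and 8. All levels were above the free RNA bound. Cluster 4 held 16.8% of all UMIs and 34.1% of the Gas6 UMIs. After each cell was thinned to 5000 UMIs, a Gas6 UMI was seen in 81.4% of cluster 4 cells and in 14.5% of SMC-like cells (94.4% and 31.2% unthinned). Clusters 4 and 1 were also 2 of the clusters with more Amotl2, at 281 CPM and 193 CPM, but MC-like and vFB3-like cells had 209 CPM and 206 CPM of Amotl2 with 81.2 CPM and 68.8 CPM of Gas6 in these clusters.

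Pros1, which encodes the anticoagulant protein S, had another order. It was highest in the 45 vFB3-like cells, at 917 CPM (841 to 998), followed by SMC-like cells at 453 CPM (407 to 504). All other clusters lay between 81.6 and 193 CPM. Cluster 6 (193 CPM), cluster 1 (179 CPM), cluster 4 (164 CPM), MC-like cells (161 CPM), cluster 5 (142 CPM) and cluster 2 (131 CPM) came next, and FB4-like cells (92.8 CPM, 86.4 to 99.5) and FB5-like cells (81.6 CPM, 70.8 to 93.6) were lowest. In this order 5 of 9 neighbouring pairs had a ratio whose interval included 1. The ratio of vFB3-like to SMC-like cells was 2.02 (1.76 to 2.32), and that of SMC-like cells to cluster 6 was 2.35 (2.06 to 2.67). The vFB3-like cluster held 1.26% of all UMIs and 7.32% of the Pros1 UMIs. Among the clusters, both that were high in Pros1 were at the low end for Gas6, and the FB5-like cluster, second for Gas6, was last for Pros1.

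Axl varied less. It was highest in FB4-like cells (279 CPM, 268 to 290) and MC-like cells (275 CPM, 234 to 321), whose ratio was 1.01 (0.864 to 1.20). FB4 markers stood at 2187 CPM in FB4-like cells and, next, at 499 CPM in MC-like cells, against 6.88 to 230 CPM in the other clusters, and their part in the Axl level of MC-like cells was not tested. Clusters 5, 6 and 2 followed at 235, 232 and 214 CPM, then cluster 4 at 191 CPM and FB5-like cells at 167 CPM. SMC-like cells (135 CPM, 110 to 164), cluster 1 (123 CPM, 116 to 131) and vFB3-like cells (122 CPM, 95.4 to 154) were lowest, and the intervals of their neighbouring ratios included 1, as did 7 of 9 in all. A UMI of Axl was seen in 40.9% to 71.4% of the cells of each cluster after thinning, which kept 49 of the 70 MC-like cells and 4014 of the 4108 cells in all. Cluster 1, which ranked the third for Gas6, was thus among the clusters with least Axl.

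Mertk, a receptor best known from phagocytes, had 1358 UMIs in the library. It stood at 72.2 CPM (52.1 to 97.6) in vFB3-like cells, 50.1 CPM (33.6 to 72.0) in MC-like cells, 43.0 CPM (38.5 to 47.9) in cluster 4 and 42.5 CPM (37.5 to 48.0) in cluster 5, and neighbours in this order did not differ beyond counting error. Cluster 6 followed at 31.3 CPM, cluster 2 at 25.2 CPM, cluster 1 at 21.7 CPM and FB4-like cells at 21.2 CPM. SMC-like cells (11.8 CPM, 5.41 to 22.4) and FB5-like cells (11.2 CPM, 7.45 to 16.2) were lowest. All of these exceeded the free RNA bound of 2.55 CPM. The whole list of macrophage markers (Adgre1, C1qa, C1qb, Csf1r, Cd68, Mrc1 and Lyz2) summed to 10.5 to 62.8 CPM across clusters, with the most in FB5-like cells and 29.2 CPM in vFB3-like cells. C1qa, C1qb, Csf1r, Adgre1 and Mrc1 together stood at 8.12 CPM (6.58 to 9.90) in the 1029 cells with a Mertk UMI and at 8.30 CPM (7.36 to 9.32) in the 3079 cells without. In the same order Lyz2 stood at 19.3 and 19.0 CPM, Cd68 at 9.29 and 7.89 CPM, and Ptprc, on 9 and 13 UMIs, at 0.753 CPM (0.344 to 1.43) and 0.381 CPM (0.203 to 0.652). In cells with 0 UMIs of the first 5 genes and of Ptprc, Mertk was 29.6 CPM (28.0 to 31.3) over the library, 42.1 CPM in cluster 4 and 72.3 CPM in vFB3-like cells.

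Tyro3, the receptor best known from brain, was sparse. Its 161 UMIs gave 3.5 CPM (2.98 to 4.08) in the library and 1.73 to 4.70 CPM in the 9 clusters with a UMI. The vFB3-like cluster had 0 UMIs, which allows up to 5.16 CPM. For Tyro3, 9 of 9 neighbouring ratios had an interval that included 1, and a UMI was seen in 1.69% of thinned cells (3.80% unthinned), so neighbours could not be ordered at this depth. Of all 45 pairs of clusters, 3 had an interval that excluded 1 (FB4-like cells, cluster 2 and cluster 5 over cluster 1, the largest 2.44, 1.35 to 4.6), against 40 pairs for Gas6.

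Several of these levels changed when cells were instead assigned one by one, by at least 3 markers seen of a list and more than of any other. Of the 520 cells gated as SMC, 76 lay in cluster 8, 155 in cluster 1 and 96 in cluster 4, whereas 48 of the 84 cells gated as MC lay in cluster 9 and 42 of the 95 gated as vFB3 in cluster 10. Gas6 stood at 213 CPM (201 to 224) in gated SMC, above gated FB4 (175 CPM, 166 to 185). Gated MC stood at 203 CPM (173 to 237), with an interval that overlapped that of gated FB4, and gated vFB3 at 98.5 CPM. Gas6 was highest in gated FB5, at 305 CPM (286 to 325). The low Gas6 of SMC and MC thus held for clusters 8 and 9 and not for the gate, whereas vFB3 was low and FB5 high under both. Pros1 stayed highest in gated vFB3, at 572 CPM (530 to 617), but gated SMC stood at 207 CPM, and gated FB5 stood at 136 CPM (123 to 150), above gated FB4 at 96.0 CPM. Axl ranged from 100.2 CPM in gated vFB3 to 264 CPM in gated FB4. Mertk was 38.7 CPM (28.3 to 51.6) in gated vFB3, 45.1 CPM in gated MC and 19.0 CPM in gated FB5.

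**Figure D1:**
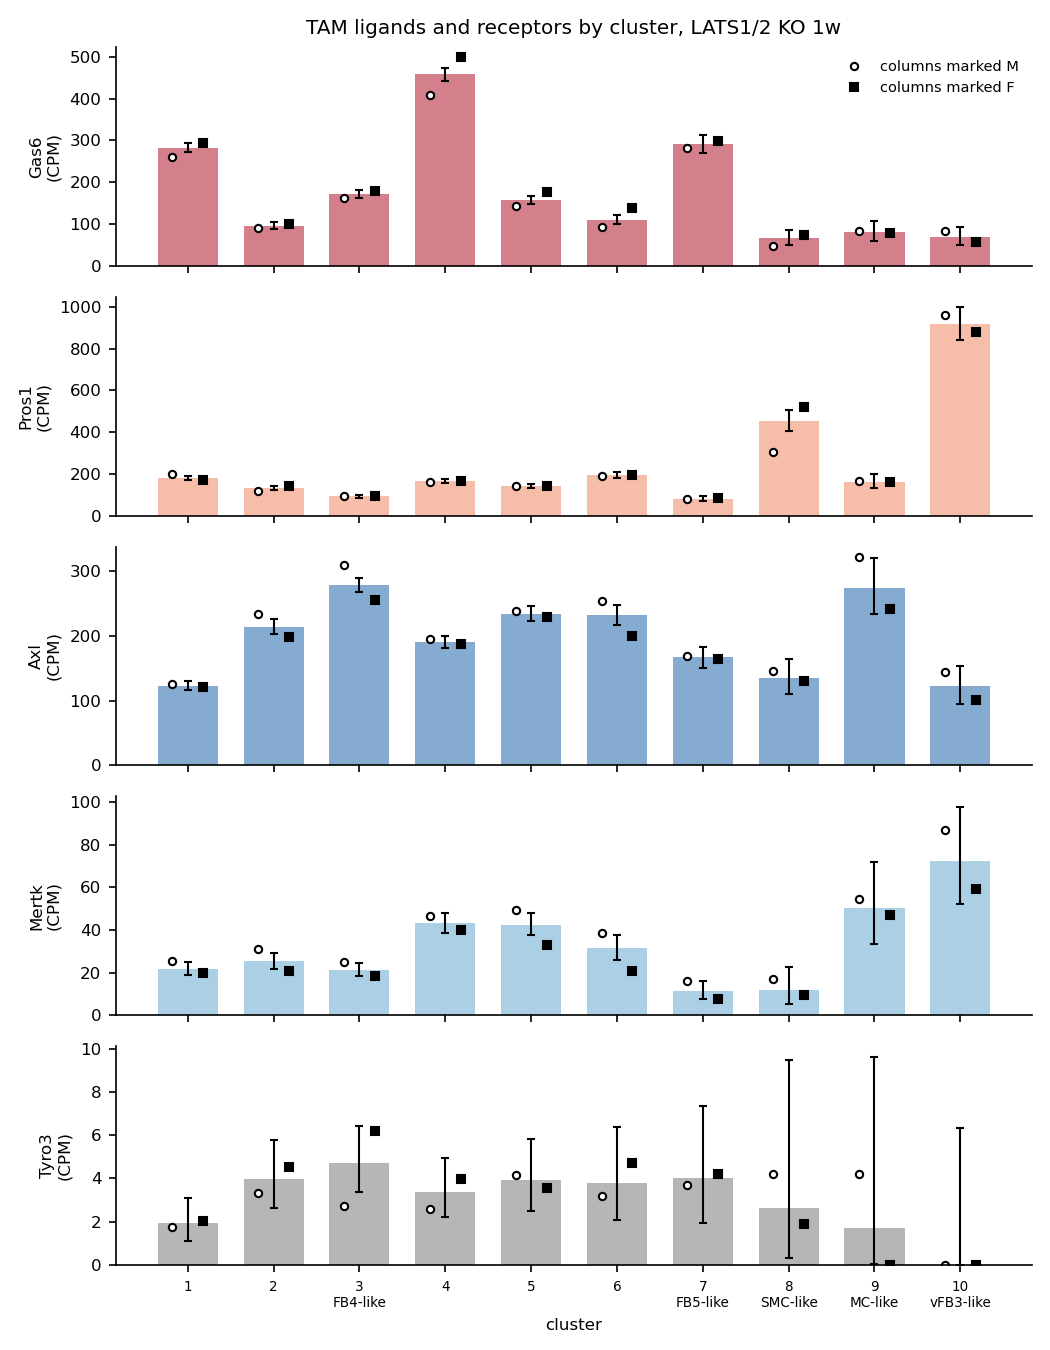
Levels of the 5 members (CPM, one panel each, axes from 0) in the 10 clusters, with bars for all cells, exact 95% Poisson intervals, open circles for columns marked M and filled squares for columns marked F. Gas6 peaks in cluster 4 (458 CPM) and Pros1 in the vFB3-like cluster 10 (917 CPM), while Axl stays between 122 and 279 CPM.

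The columns marked M and F differed in level for several members. Axl and Mertk were higher in M in 10 of 10 clusters, with intervals apart in 3 clusters for Axl and 2 for Mertk. Gas6 was higher in F in 8 of 10 clusters, with intervals apart in 4. Over fibroblasts Gas6 stood at 202 CPM in M and 253 CPM in F, Axl at 224 and 189 CPM, and Mertk at 35.8 and 24.4 CPM. Amotl2 was also higher in F in 9 of 10 clusters. Pros1 was 154 CPM in M and 152 CPM in F fibroblasts, and its intervals were apart in 2 clusters with opposite directions. SMC-like cells had 306 CPM (240 to 384) in M and 521 CPM (460.5 to 586) in F, and cluster 1 had 198 CPM (182 to 215) in M and 169 CPM (159 to 180.2) in F. What sets these shifts was not tested.

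Fibroblasts were then ordered by the YAP/TAZ target Amotl2, with bins of 0, 1 and 2 or more Amotl2 UMIs set on cells thinned to 5000 UMIs. Gas6 stood at 163 CPM (158 to 168) in the 2277 cells with 0, 265 CPM (255 to 274) in the 944 cells with 1 and 383 CPM (370 to 396) in the 668 cells with 2 or more. The level of the top bin over the bottom was 2.36 (exact conditional binomial interval 2.25 to 2.47), above that of 99.4% of the 11378 genes with at least 100 UMIs in fibroblasts. Gas6 was the 1 member at least 1.5-fold apart, beside 4.1% of all these genes that were higher by that much and 3.59% that were lower. Pros1 stood at 146, 160 and 162 CPM (ratio 1.11, 1.04 to 1.18) and Axl at 216, 189 and 193 CPM (ratio 0.894, 0.845 to 0.945). Besides the subsets given below, the Pros1 interval included 1 in bins from cells thinned to 2000 UMIs (0.996 to 1.22). It also did with at most 5% mitochondrial UMIs (0.983 to 1.16) and in cells of 8000 to 14000 UMIs (0.992 to 1.17). The Axl interval included 1 in fibroblasts with fewer immediate early UMIs (0.863 to 1.02). Mertk stood at 27.6, 31.7 and 31.7 CPM (1.15, 0.993 to 1.32) and Tyro3 at 3.79, 3.32 and 3.18 CPM (0.840, 0.526 to 1.3). Both intervals include 1, but alternatives gave intervals that did not, with 1.24 (1.01 to 1.53) for Mertk in columns marked F, 1.15 (1.03 to 1.28) for Mertk in an unthinned split at the median, and 0.326 (0.0663 to 0.974) for Tyro3 in bins from cells thinned to 2000 UMIs. The bins differed in depth, with median UMIs of 10316, 11456 and 12119.

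Along Vegfc, binned in the same way, both ligands were higher and Axl was lower. Gas6 stood at 185 CPM in the 2545 fibroblasts with 0 Vegfc UMIs, 280 CPM in the 848 with 1 and 349 CPM in the 496 with 2 or more, a ratio of 1.88 (1.79 to 1.98). Pros1 stood at 134, 167 and 210 CPM (ratio 1.57, 1.48 to 1.67), and these were the 2 members past 1.5-fold higher, beside 4.13% of all genes. Pros1 was no longer past 1.5-fold in columns marked F (1.48), in cells of 8000 to 14000 UMIs (1.43), with at most 5% mitochondrial UMIs (1.41), in fibroblasts with more immediate early UMIs (1.39) or in an unthinned split at the median (1.32), and neither ligand was when pooled within clusters (Gas6 1.19, Pros1 1.20). Axl stood at 223, 182 and 158 CPM, a ratio of 0.709 (0.663 to 0.758). It passed 1.5-fold lower in columns marked M (0.664, 0.598 to 0.735) and in bins from cells thinned to 2000 UMIs (0.654, 0.578 to 0.739). Tyro3, on 14 UMIs in the top bin, stood at 3.68, 4.10 and 2.19 CPM (ratio 0.595, 0.314 to 1.04), past 1.5-fold lower in value but with an interval that included 1, beside 6.91% of all genes. In columns marked F this Tyro3 ratio was 0.401 (0.155 to 0.873), and in M 1.01 (0.378 to 2.3). Mertk was 28.8, 28.9 and 33.1 CPM (ratio 1.15, 0.984 to 1.34), with intervals above 1 in cells of 8000 to 14000 UMIs (1.23, 1.01 to 1.49) and in fibroblasts with fewer immediate early UMIs (1.37, 1.08 to 1.71). Immediate early genes summed to 4321 CPM in the bottom bin and 2748 CPM in the top bin of Vegfc. The median UMIs were 10369, 11388 and 12462. How far these differences between the bins bear on the ratios was not tested beyond the subsets given below.

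**Figure D2:**
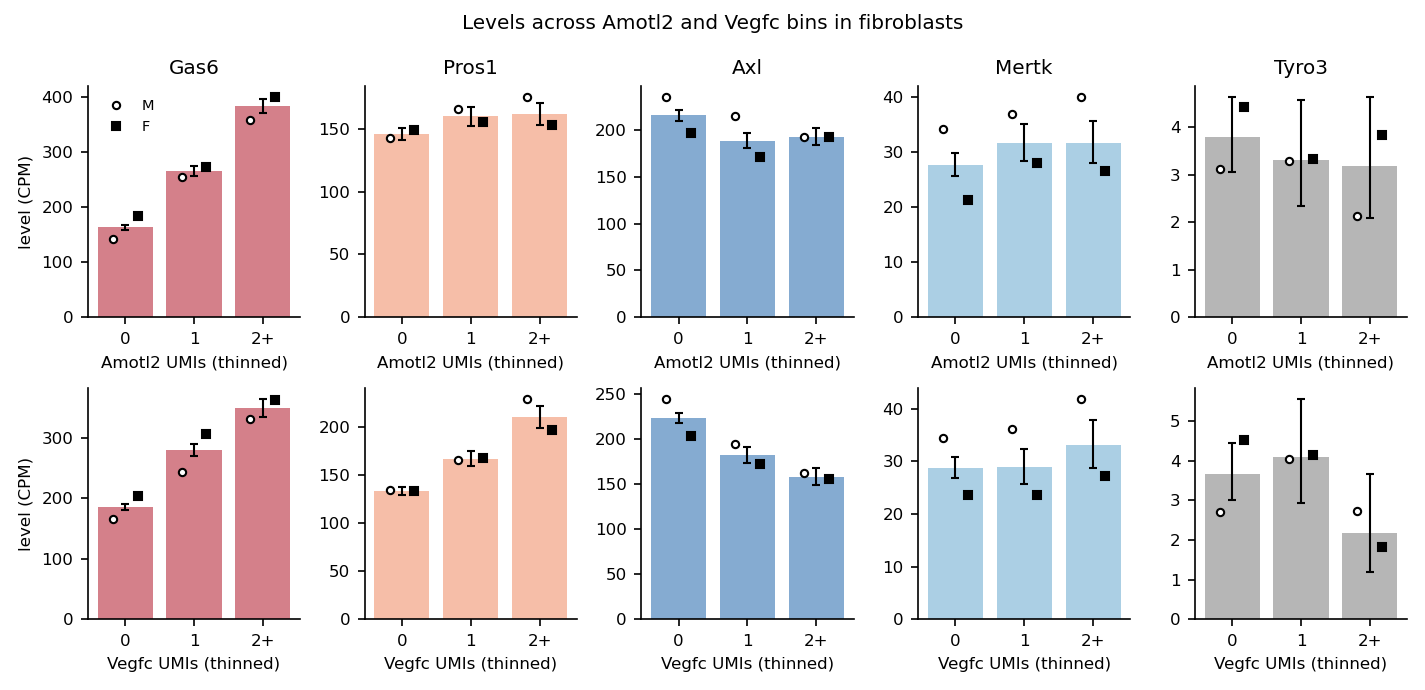
Levels of the members (CPM, axes from 0) in fibroblasts with 0, 1 and 2 or more thinned UMIs of Amotl2 (upper row) and Vegfc (lower row), with exact 95% Poisson intervals, open circles for M and filled squares for F. Gas6 goes from 163 to 383 CPM across Amotl2, Pros1 from 134 to 210 CPM across Vegfc, and Axl from 223 to 158 CPM across Vegfc.

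As Amotl2 and Vegfc are themselves high in the same cells, fibroblasts were split by both. Gas6 was higher with either and was highest with both, at 138 CPM (132 to 143) in the 1693 cells without a thinned UMI of either gene, 229 CPM (217 to 240) in the 584 with Vegfc alone, 271 CPM (261 to 282) in the 852 with Amotl2 alone and 362 CPM (350 to 374) in the 760 with both. Pros1 went with Vegfc, at 130 and 141 CPM without Vegfc (Amotl2 absent and present) and at 188 and 181 CPM with it. Axl was 231 CPM without either, 208 CPM with Amotl2 alone, and 174 and 172 CPM in the sets with Vegfc. Mertk stayed between 27.1 and 33.0 CPM and Tyro3 between 3.20 and 3.94 CPM in the 4 sets. A thinned count of 0 does not mean that a cell lacked the gene.

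**Figure D3:**
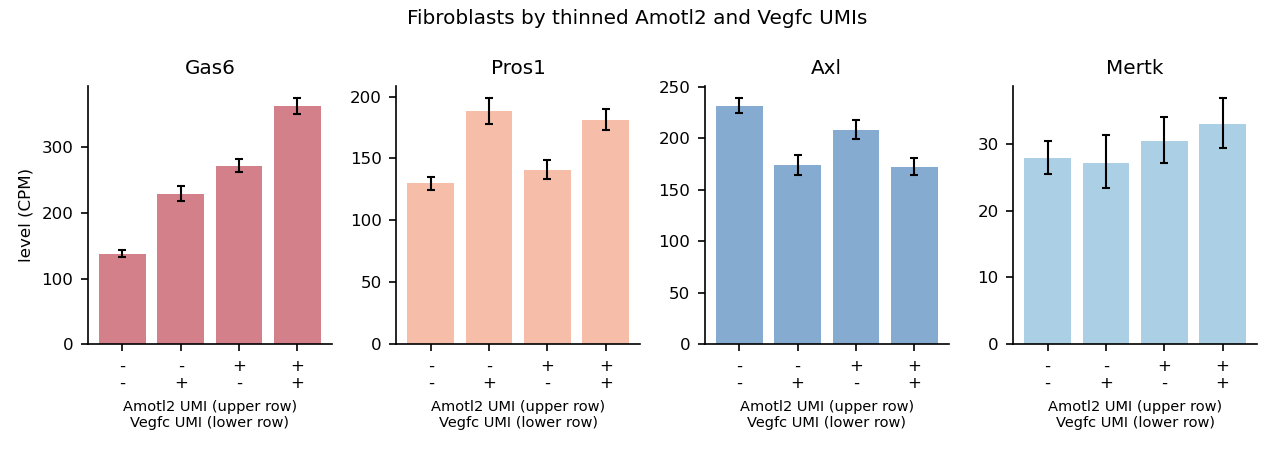
Levels of Gas6, Pros1, Axl and Mertk (CPM, axes from 0, exact 95% Poisson intervals) in fibroblasts without (-) or with (+) a thinned UMI of Amotl2 (upper signs) and Vegfc (lower signs). Gas6 takes 4 separate levels from 138 to 362 CPM, whereas Pros1 and Axl fall into pairs by Vegfc with a smaller step by Amotl2 for Axl.

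The bins drew on clusters unequally, since clusters 4, 1 and 3 gave 241, 178 and 127 of the 668 cells with 2 or more Amotl2 UMIs. Within each fibroblast cluster Gas6 kept its direction, with a ratio over Amotl2 of 1.35 (1.22 to 1.48) in cluster 1, 1.40 (1.28 to 1.52) in cluster 4, 1.77 (1.43 to 2.18) in cluster 5, 2.21 (1.96 to 2.49) in FB4-like cells, 2.34 (1.97 to 2.78) in FB5-like cells and 2.67 (1.96 to 3.59) in cluster 6. In cluster 2 (23 cells with 2 or more) and in vFB3-like cells (11 cells) the intervals included 1, at 1.29 (0.878 to 1.84) and 1.69 (0.792 to 3.63). Pooled over fibroblast clusters, the ratio was 1.59 (1.52 to 1.67). Pros1 and Axl, in contrast, had pooled ratios of 0.991 (0.926 to 1.06) and 0.973 (0.915 to 1.03) over Amotl2, so the small differences seen over all fibroblasts were not detectable once pooled within clusters. Single clusters still differed. Pros1 had ratios of 1.32 (1.02 to 1.68) in cluster 5, 1.40 (1.05 to 1.83) in cluster 6 and 1.68 (1.17 to 2.37) in FB5-like cells, on 36, 19 and 33 cells with 2 or more Amotl2 UMIs. Axl had 0.843 (0.757 to 0.938) in FB4-like cells, and Mertk 1.73 (1.13 to 2.56) in cluster 5.

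Over Vegfc the pooled ratios within clusters were 1.19 (1.12 to 1.26) for Gas6, 1.20 (1.11 to 1.29) for Pros1 and 0.898 (0.831 to 0.971) for Axl. Clusters 1 and 4, which held 220 and 172 of the 496 cells with 2 or more Vegfc UMIs, had Gas6 ratios of 1.11 (1.01 to 1.22) and 1.09 (1.004 to 1.19). Their Pros1 ratios were 1.18 (1.04 to 1.34) and 1.33 (1.16 to 1.52), and their Axl ratios 1.01 and 1.05 with intervals that included 1. Axl was lower with Vegfc within FB4-like cells, at 0.583 (0.476 to 0.707) on 47 and 502 cells, and in the other 7 clusters the interval of its ratio included 1. Gas6 in FB5-like cells had a ratio of 3.36 (2.61 to 4.28), on 8 cells with 2 or more Vegfc UMIs. This interval takes the 77 Gas6 UMIs of these 8 cells as independent, whereas a single cell of the cluster held up to 21.

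Fibroblasts split at the median of immediate early UMIs (Fos, Fosb, Jun, Junb, Egr1, Atf3 and Ier2) gave Gas6 ratios over Amotl2 of 2.22 (fewer) and 2.47 (more), and columns marked M and F gave 2.52 and 2.19. Over Vegfc the Gas6 ratios were 1.82 and 2.04 in these sets and 2.00 and 1.78 in M and F. Axl over Amotl2 was 0.818 (0.749 to 0.892) in M and 0.981 (0.911 to 1.06) in F, so the small difference along Amotl2 was seen in M and was not detectable in F. Pros1 over Amotl2 was likewise 1.23 (1.12 to 1.35) in M and 1.03 (0.946 to 1.12) in F.

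**Figure D4:**
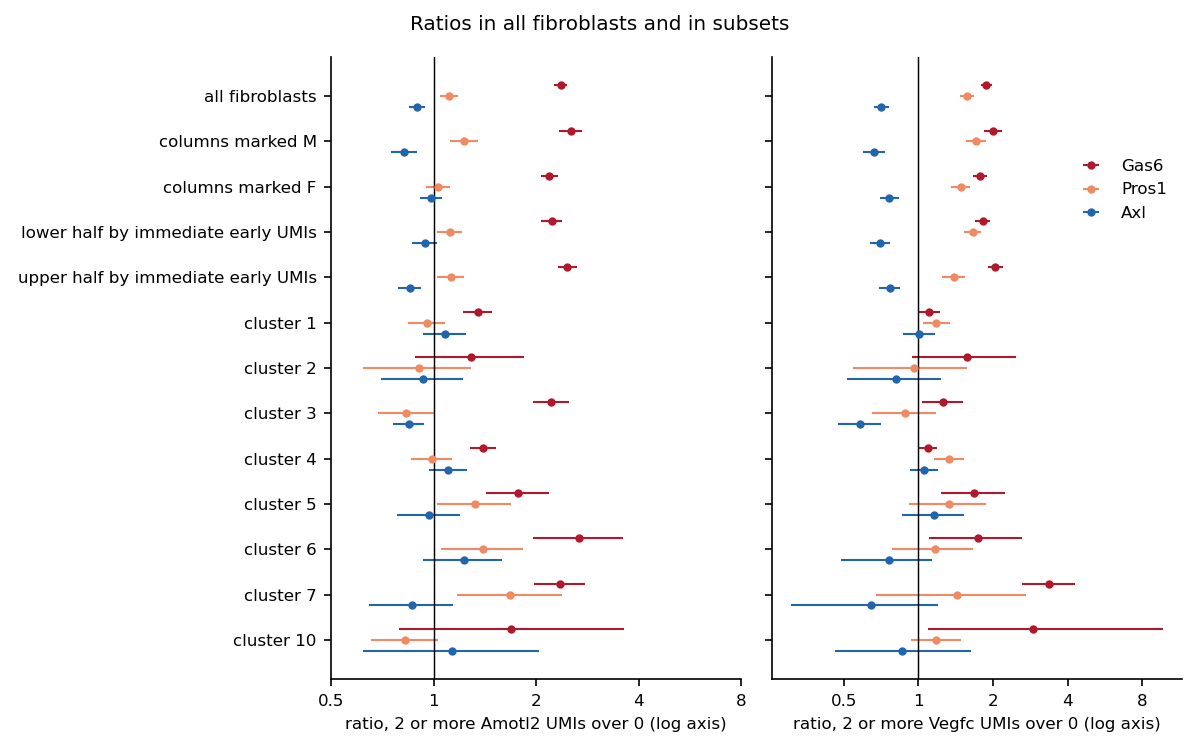
Ratio of the level in fibroblasts with 2 or more UMIs over those with 0 UMIs of Amotl2 (left) and Vegfc (right), on a log axis, for Gas6, Pros1 and Axl in all fibroblasts and in subsets, with exact 95% conditional binomial intervals and a line at 1. Gas6 points lie right of 1 in each subset shown, and they are nearer to 1 in clusters 1 and 4 (1.35 and 1.40 over Amotl2) than in all fibroblasts (2.36).

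FB4-like cells differed from the 3026 fibroblasts without a class in both ligands, in Axl and in Mertk, and for Tyro3 the interval of the ratio included 1. The fibroblasts without a class had far more Adamdec1, a villus fibroblast marker, than FB4-like cells. Gas6 was 172 against 243 CPM (ratio 0.706, 0.667 to 0.746), Pros1 92.8 against 160 CPM (0.578, 0.536 to 0.623) and Mertk 21.2 against 32.3 CPM (0.655, 0.556 to 0.768). Axl was 279 against 190 CPM (1.47, 1.40 to 1.54), and Tyro3 4.70 against 3.26 CPM (1.44, 0.977 to 2.09). Pros1 and Mertk were past 1.5-fold lower, beside 11.9% of the 11378 genes, and 0 members were past 1.5-fold higher, beside 6.23%. Mertk was no longer past 1.5-fold in columns marked F (0.689), in cells of 8000 to 14000 UMIs (0.723), with a marker gate per cell (0.696) or with equal weight per cell (0.672). Gas6 passed 1.5-fold lower in columns marked F (0.654), at clustering resolution 1.0 (0.656) and with at most 5% mitochondrial UMIs (0.660), and Tyro3 passed 1.5-fold higher in columns marked F (1.80, 1.12 to 2.83). The median ratio of all genes was 0.923. Amotl2 was nearly level in this comparison (161 against 148 CPM) and Vegfc lower in FB4-like cells (76.6 against 134 CPM).

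**Figure D5:**
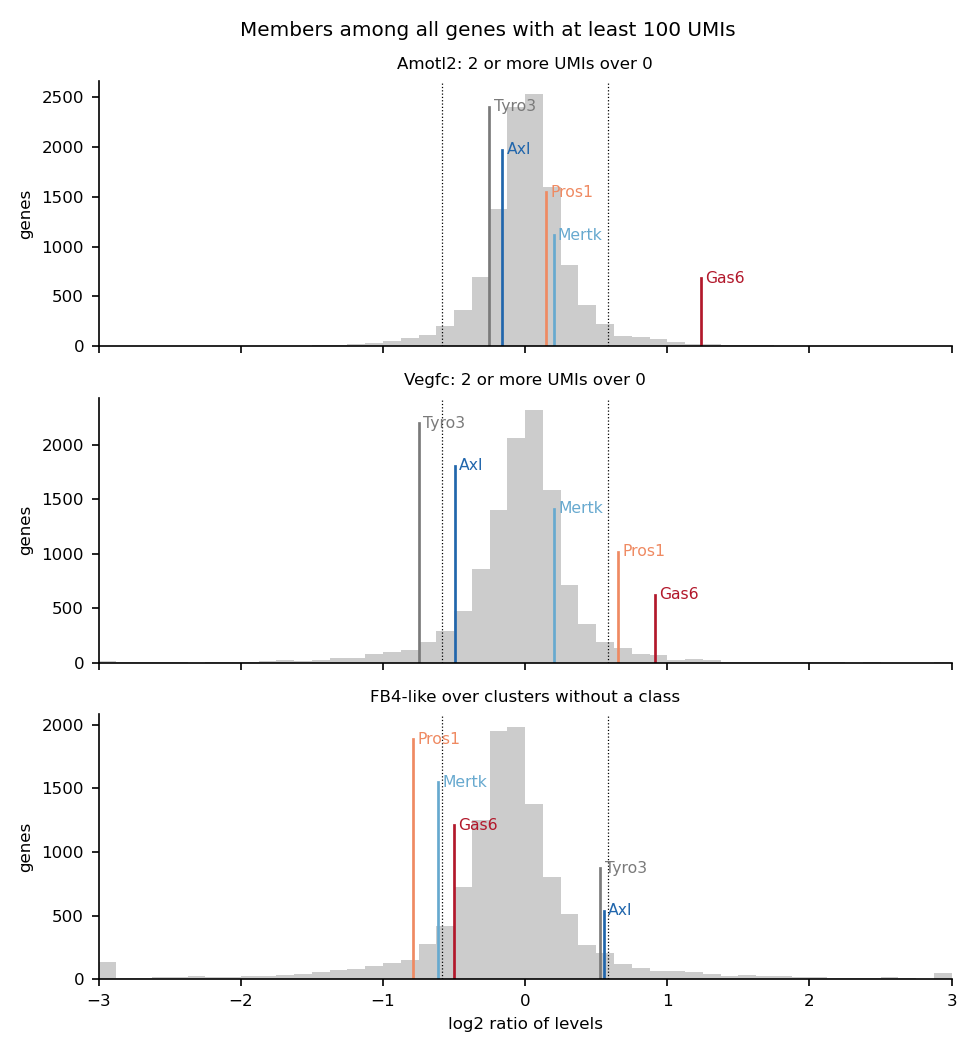
Number of genes by log2 ratio of levels (values beyond 3 in either direction stand in the end bins) for the 11378 genes with at least 100 UMIs in fibroblasts, with lines at the ratio of each member (line heights carry no value) and dotted lines at 1.5-fold. Gas6 lies far to the right for Amotl2 (ratio 2.36), Gas6 and Pros1 to the right and Axl and Tyro3 to the left for Vegfc, and Pros1 and Mertk past the dotted line to the left for FB4-like cells.

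Other genes of the pathway were read from lists against the same bins. Of 2 sheddases (Adam10 and Adam17, which release receptor ectodomains) and 10 signal partners such as Grb2, Pik3r1 and Socs3, 0 were past 1.5-fold in either direction over Amotl2 or Vegfc. Of the 5 other bridging proteins and TAM ligands, 3 had at least 100 UMIs, and Lgals3, a galectin reported to bind MERTK, was lower over Amotl2 (4.36 against 7.46 CPM, ratio 0.585) and over Vegfc (3.43 against 7.46 CPM, 0.460). Of 10 measured engulfment genes (of 17 listed), Gulp1, an adaptor of engulfment receptors, was higher over Amotl2 (113 against 68.6 CPM, ratio 1.65) and Abca1, a lipid exporter, lower over Vegfc (23.6 against 36.3 CPM, ratio 0.649). Of 4 measured other Gla proteins (of 10 listed), matrix Gla protein Mgp was lower over Amotl2 (2382 against 4272 CPM, 0.558) and Vegfc (1729 against 4324 CPM, 0.400), and the transmembrane Gla protein Prrg3 was higher over Amotl2 (11.0 against 7.14 CPM, 1.54). Of the YAP/TAZ targets, 3 of 4 measured besides Amotl2 were higher over Amotl2 (Ajuba 2.71, Cyr61 2.19 and Lats2 1.72) and 4 of 5 were higher over Vegfc (Ajuba 2.90, Amotl2 2.27, Ctgf 1.94 and Lats2 1.63). Lats2 is itself a deleted gene here. Lats1, the other, was lower over Vegfc (9.05 against 16.1 CPM, ratio 0.564, 0.421 to 0.742), and over Amotl2 its interval included 1 (0.871, 0.697 to 1.08). Whether deletion differed between the bins was not tested. The counts of listed genes past 1.5-fold stand beside the shares of all genes given above for the same bins.

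Ligand and receptor UMIs fell in the same cells about as often as the single shares give. In fibroblasts thinned to 5000 UMIs, Gas6 and Axl were both seen in 32.2% of cells (30.7 to 33.7, exact binomial), beside 31.8% from the product of the shares within clusters. Gas6 and Mertk were both seen in 8.18% beside 7.72%, Pros1 and Axl in 28.6% beside 28.2%, and Pros1 and Mertk in 7.33% beside 7.0%. In cluster 4, 49.9% of cells (46.0 to 53.8) had both Gas6 and Axl, beside 48.7%. The pairs Gas6 with Pros1 and Axl with Mertk were likewise at 1.02 and 1.04 times the product over fibroblasts.

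The genes whose levels across the 10 clusters were most like those of each member but Tyro3, which had too few UMIs, were ranked by Pearson r of log2(CPM + 1), computed separately in M and F, among 8190 genes with at least 500 UMIs. The points share 1 library, and r is a description over 10 clusters of unequal size. For Gas6 they were Masp1 (r 0.873 in M and 0.885 in F), Tceal9, Fzd2, Man1c1 and Gpx3. For Pros1 they were Anxa6 (0.914 and 0.905), Ctsc, Amer1, Cep164 and Tmem243. Tgfb3 (0.898 and 0.945), Sirpa, Plce1, C3 and Has1 were most like Axl, and Dll1 (0.899 and 0.854), Iigp1, Pitrm1, Pcdh19 and Picalm most like Mertk. Between the members, Pros1 had r of -0.463 and -0.641 with Gas6 and of -0.495 and -0.731 with Axl. Gas6 had r of 0.555 and 0.447 with Amotl2 over clusters, and Pros1 0.659 and 0.536 with Vegfc.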

How the data were processed

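Single-cell RNA of 1 library (LATS1/2 KO 1w) was used. The submitters' processing notes name Cell Ranger 3.0.2, mm10 and Seurat 3.0.1, whereas the study's methods give a slightly earlier Seurat release. The methods also state the filters of the authors, namely cells with 1000 to 6000 genes and at most 7% mitochondrial UMIs, genes seen in at least 3 cells, and removal of immune and endothelial clusters. Deposited by the authors was the natural log of each cell's UMIs scaled to 10000, after adding 1. Since 13789523 nonzero entries (100%) came out as whole UMIs within a tolerance of 0.001, counts were read back, and levels and ratios were computed from these. No cell was removed.

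The members and all lists were chosen with earlier results of these data known. Cells were clustered in Seurat 5.3.0 (R 4.3.3) on 2000 variable genes and 30 principal components after regression on UMI count and mitochondrial percent, with Louvain resolution 0.5, leaving out the authors' integration by Xist. A marker counted when at least 10% of a cluster had it and its level was 2 times the median elsewhere. A name needed at least 3 such markers and 66.7% of a list, and no other list's marker among the 10 leading genes. This rule was set after levels were seen and was changed once, when the share was added because 3 of 5 vFB3 markers had named clusters 1 and 6. Leading genes were ranked by fold among genes seen in at least 30% of a cluster and 15 percentage points more than elsewhere. Some leading genes of cluster 5 and 1 gene list are not reported here.

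Intervals were exact Poisson for levels, exact conditional binomial for ratios and Clopper-Pearson for shares. Pooled ratios were Mantel-Haenszel. Zero counts were given a limit of 3 UMIs. Bins used cells thinned without replacement to 5000 UMIs (72 shallower fibroblasts left out), levels used all UMIs. Named genes were the members, the reference genes, listed genes with at least 100 fibroblast UMIs at least 1.5-fold apart, and the 5 genes most like each member with at least 500 UMIs. The ratio step was first tested on simulated Poisson counts with a random split of cells. That test cannot check the intervals against differences between cells. The authors left out cells above 6000 genes as likely doublets. Scrublet in scanpy 1.11.5 marked 8 cells (0.195%), which is too low to count as having worked, so an alternative dropped the top 4% by score. Promoters came from RefSeq tables on GRCm38.p6 (7 of 7 genes matched).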

Additional observations from a re-analysis of the deposited data

How the results depend on the processing

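With 1 library, all intervals cover counting error only, and clusters 8 to 10 with 45 to 77 cells limit what can be read there. Of 164 alternatives, 117 kept a ratio within the interval of its reported value or a count within 1.5 times, 46 moved it and 1 took a ratio whose interval had excluded 1 to the other side of 1, and the cause was not tested for any of them. That one was Pros1 over Amotl2 pooled within clusters (0.991 in place of 1.11). Ratios whose interval had included 1 crossed it as well, namely Mertk over Amotl2 from cells thinned to 2000 UMIs, Tyro3 over Amotl2 in cells of 8000 to 14000 UMIs (1.12) and pooled within clusters (1.02), and Tyro3 in columns marked M over Vegfc (1.01) and in FB4-like cells. Pooling within clusters also gave, over Amotl2, 1.59 for Gas6 and 0.973 for Axl, and over Vegfc 1.19 for Gas6, 1.20 for Pros1 and 0.898 for Axl. Bins from cells thinned to 2000 UMIs gave 2.04 (Gas6), 0.972 (Mertk) and 0.326 (Tyro3, on few UMIs) over Amotl2 and 0.654 (Axl) over Vegfc. A split at the median without thinning gave 2.18 (Gas6), 1.20 (Pros1) and 0.817 (Axl) over Amotl2 and 1.32 (Pros1) over Vegfc. Columns marked M gave 2.52, 1.23 and 0.818 (Gas6, Pros1 and Axl over Amotl2), 2.00 and 1.71 (Gas6 and Pros1 over Vegfc), and for FB4-like cells over fibroblasts without a class 0.781 (Gas6) and 0.896 (Tyro3, below 1 in place of 1.44). Columns marked F gave 2.19, 1.03 and 0.981 over Amotl2, 1.78 (Gas6) and 0.763 (Axl) over Vegfc and 0.654 (Gas6) for FB4-like cells. Fibroblasts with fewer immediate early UMIs gave 2.22 (Gas6, Amotl2) and 1.37 (Mertk, Vegfc), and those with more 2.04 (Gas6), 1.39 (Pros1) and 0.765 (Axl) over Vegfc. At most 5% mitochondrial UMIs gave 1.41 (Pros1, Vegfc) and 0.660 (Gas6, FB4-like), and cells of 8000 to 14000 UMIs gave 1.43 (Pros1) and 0.771 (Axl) over Vegfc and 1.27 (Axl, FB4-like). For FB4-like cells, resolution 1.0 gave 0.656 (Gas6) and 1.33 (Axl), no regression 1.38 (Axl), the marker gate per cell 0.639 (Pros1) and 1.33 (Axl), and equal weight per cell 1.38 (Axl). With genes of at least 20 UMIs in place of 100, those at least 1.5-fold apart numbered 845 higher and 990 lower over Amotl2 (467 and 409 before) and 836 and 1499 over Vegfc (470 and 786 before). No paired analysis was possible because there was 1 library.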

Other observations

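Other bridging and clearance genes had patterns of their own over the clusters. Mfge8, which links phosphatidylserine to integrins, stood at 1341 CPM in MC-like cells and 559 CPM in FB5-like cells, against 208 to 377 CPM elsewhere. Edil3, a related bridging protein, was highest in clusters 5 (160 CPM) and 4 (135 CPM) but stood at 15.2 CPM in FB5-like and 3.44 CPM in vFB3-like cells. Itgb3, an integrin chain that binds these bridges, stood at 94.6 CPM in vFB3-like, 86.7 CPM in SMC-like and 77.6 CPM in cluster 6 cells and at 5.60 to 28.1 CPM elsewhere, and Cd36, a scavenger receptor, at 43.2 CPM in MC-like cells and at most 8.60 CPM elsewhere. Endothelial markers were also highest in MC-like cells (17.3 CPM, Pecam1 at 0), and their part in Cd36 was not tested. Socs3, a feedback inhibitor of cytokine signaling, stood at 467 CPM in MC-like cells and at 62.9 CPM in cluster 6. Mgp stood at 6406 CPM in FB4-like cells and at 114 CPM in vFB3-like cells. These genes were picked after their values had been seen.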
